A study of Chlamydomonas reinhardtii with 25 samples.

Results

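The mixture of cerium, thulium and yttrium (Mix) was compared with yttrium alone (Y) in the unicellular green alga Chlamydomonas reinhardtii, wild-type strain CC-125. The comparison holds 10 of the 25 RNA sequencing libraries of the study, 5 from cells given Mix and 5 from cells given Y, taken by the group named in each sample title. The remaining libraries come from cells given cerium (Ce) or thulium (Tm) alone and from cells given no metal (Control), 5 of each. All groups were grown at 20 °C with 12 h of light per day to mid-exponential phase, washed, and then held for 2 h at pH 7.0 in 10.0 mM NaHEPES with 10.0 µM calcium nitrate. Cells received 0.5 µM of a single metal, or an equimolar mixture described with the same 0.5 µM. Whether that figure is the sum of the metals in Mix is not clear from the labels. Mix may thus have held as much yttrium as Y and more metal in total, or less yttrium and the same total.

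Yttrium and the lanthanides, to which cerium and thulium belong, form trivalent ions that differ little in chemistry. Cerium has one of the larger ions of the series and counts as a light rare earth element, whereas the ion of yttrium is close in size to those of the heavy elements such as thulium. None of them is known to be needed by green algae, and their ions can compete with calcium for binding sites. The study's title puts interactions among such elements at its centre. Mix against Y asks how the transcriptome differs when cerium and thulium accompany yttrium. The level of yttrium may be lower as well, or the total of metal higher, and these cannot be told apart from the presence of the other metals.

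Reads were counted per annotated transcript, and totals ran from 18050723 to 22471637 counts in the Mix libraries and from 16183384 to 20913599 in the Y libraries. Levels are given as CPM, counts scaled to a common library total, with each total first multiplied by the scaling factor of its library (TMM, edgeR). They are therefore relative levels and not plain shares of the sampled RNA. A change in RNA per cell cannot be told apart from them. The factors ran from 1.4 to 1.46 in Ce and from 0.694 to 1.16 in Control. They ran from 0.857 to 0.961 in Mix, 0.927 to 0.992 in Y and 0.894 to 0.958 in Tm. For the same share, a larger factor gives a lower CPM. The deposited table gives gene IDs without names, and the reference used here gives locus tags only. No function is therefore attached to any ID, gene families could not be counted, and the markers of vegetative cells and gametes could not be looked up. P-values set a difference against the spread between libraries within all groups, not within Mix and Y alone. That spread may be technical, because separate cultures are not mentioned in the labels.

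Mix and Y gave distinct profiles. Of 12796 tested transcripts, 2091 were higher in Mix than in Y (16.3%) and 2460 were lower (19.2%), at an adjusted p under 0.05 in the quasi-likelihood test of edgeR. Together these are 4551 transcripts, 35.6% of those tested. Most of the differences were small. The median called transcript was 1.54-fold higher or 1.70-fold lower in Mix, and 75.3% of the called transcripts differed by less than 2-fold. A difference of at least 2-fold was called in 439 transcripts that were higher in Mix (3.43%) and in 687 that were lower (5.37%). All 5 Mix libraries lay on the same side of all 5 Y libraries in 3369 of the called transcripts (74.0%), against 30.2% of all tested transcripts. Both the calls and the overlap were taken from the same libraries, so the higher share among the calls is no separate support for them.

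**Figure D1:**
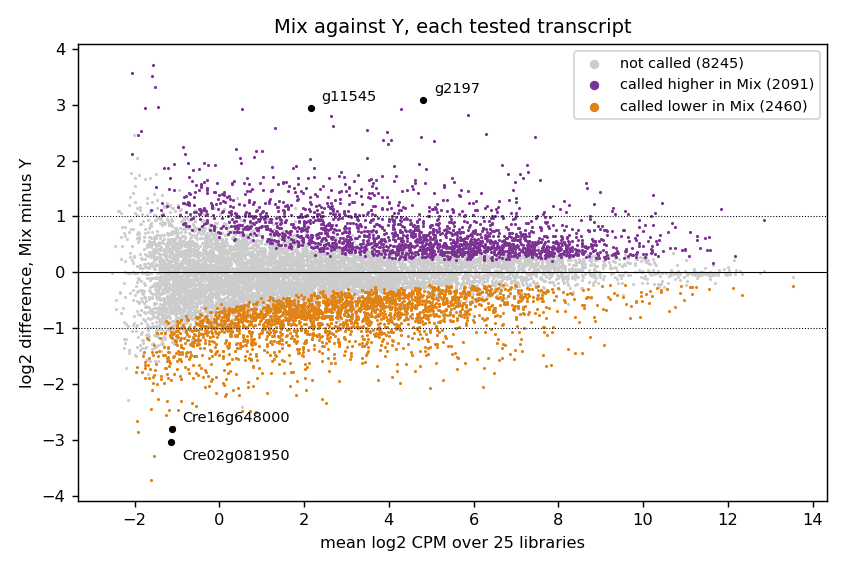
Log2 difference between Mix and Y (vertical axis, Mix minus Y) against the mean log2 CPM over 25 libraries (horizontal axis), with 1 point per tested transcript. Purple points were called higher in Mix (2091), orange points were called lower (2460), grey points were not called (8245), dotted lines mark 2-fold differences, and the 4 named transcripts are in black.

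The balance of the calls rests on the scaling of the libraries, whereas the presence of differences in both directions does not. Higher levels in Mix made up 45.9% of the calls with the scaling used here, 46.1% with library totals alone and 47.0% when only the Mix and Y libraries were fitted. The share was 56.8% with the factors of the median-of-ratios method. It was 67.4% when scaling took Control library 1 as its reference, where 3276 transcripts were called higher and 1585 lower. The median difference of all tested transcripts was -0.04 on the log2 scale, and it became 0.09 with that reference. Which direction prevailed can therefore not be read from these data, and the differences below are best read against the median of all transcripts.

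For many transcripts the data bound the difference closely under the main scaling. The intervals take the same spread for all groups and leave out the choice of scaling. That choice put the median difference at -0.11 with library totals alone and at 0.09 with Control library 1 as the reference. The estimate lay within 1.5-fold in 70.0% of all tested transcripts, and the whole 95% interval lay within 1.5-fold in 3444 of them (26.9%) and within 2-fold in 7846 (61.3%). Of the 8245 transcripts that were not called, 5827 (70.7%) had an interval inside 2-fold, so a 2-fold difference is outside the interval there. The other uncalled transcripts had wider intervals and leave such a difference possible.

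The transcripts higher in Mix carried 28.9% of the counts of tested transcripts in Mix and 20.7% in Y, and those lower in Mix carried 11.9% in Mix and 17.9% in Y. The first set was the more abundant one, with a median of 4.71 log2 CPM over the 25 libraries against 2.81 in the second and 2.24 in all tested transcripts. Among the most abundant quartile of transcripts, with a median of 88.8 CPM, 1042 (32.6%) were higher and 580 (18.1%) lower in Mix. Among the least abundant quartile, with a median of 0.625 CPM, 135 (4.22%) were higher and 383 (12.0%) lower. In the second-highest quartile 594 were higher and 851 lower. When Control library 1 served as reference, the counts were 1697 higher and 370 lower in the most abundant quartile, 883 and 544 in the second-highest, where the balance turned, and 201 and 262 in the least abundant. The median difference was 0.14 in the most abundant quartile and -0.17 in the least abundant one, and with Control library 1 as the reference it was 0.28 and -0.03. Another scaling moves the differences of all transcripts nearly alike, so the step between the quartiles does not test it. The precision differed between them: the median standard error was 0.122 in the most and 0.384 in the least abundant quartile.

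The named transcripts are the 2 largest rises and the 2 largest falls among the 3245 called transcripts with at least 1 CPM in Mix or Y and with no overlap between the libraries of both groups. Of these 3245 transcripts, 1542 were higher and 1703 lower in Mix. Some rarer transcripts outside this rule had larger estimates, as the plot by level shows.

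Under this rule the largest rise was that of g2197. It had 45.3, 94.1, 87.6, 75.6 and 41.1 CPM in the Mix libraries, against 6.23, 9.04, 7.21, 11.0 and 7.21 CPM in the Y libraries. The rule required that the Mix and Y libraries not overlap, so their separation follows from the choice. Mix libraries 1 and 5 were the low ones of their group. The log2 difference was 3.07 ± 0.26 (SE, edgeR adjusted p = 1.83e-09), an 8.42-fold difference. Its mean level was 68.7 ± 24.3 CPM in Mix, 8.13 ± 1.89 in Y, 7.01 ± 1.24 in Ce, 36.9 ± 11.2 in Tm and 141 ± 50.0 in Control (SD, n = 5 each). In order of level, Control stood highest and was followed by Mix and Tm, and the libraries of neighbouring groups among these overlapped. Y and Ce stood lowest and overlapped each other, and all their libraries lay below the lowest Tm library.

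The second rise, that of g11545, had the same high and low groups at a lower level. Its Mix libraries had 7.38, 18.3, 14.4, 13.2 and 7.09 CPM, against 1.29, 1.96, 1.15, 1.66 and 1.77 CPM in the Y libraries. Mix libraries 1 and 5 were again the low ones, each above every Y library as the rule required. The log2 difference was 2.94 ± 0.31 (edgeR adjusted p = 4.55e-08). The mean was 12.1 ± 4.79 CPM in Mix, 1.57 ± 0.337 in Y, 1.1 ± 0.373 in Ce, 7.07 ± 2.84 in Tm and 12.4 ± 3.34 in Control (SD, n = 5 each). The Mix, Control and Tm libraries overlapped, and Y and Ce overlapped at the low end.

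The largest fall under the rule was that of Cre02g081950, a rare transcript. Of Mix and Y, only Y reached a mean of 1 CPM, so the transcript passed the rule through the group where it is high. The Mix libraries had 0.229, 0.155, 0.122, 0.156 and 0.0499 CPM, and the Y libraries had 1.24, 1.05, 1.64, 0.683 and 1.39 CPM. These levels rest on 13 counts over the 5 Mix libraries and 108 over the 5 Y libraries. The log2 difference was -3.02 ± 0.36 (edgeR adjusted p = 3.56e-07), with a 95% interval of -3.76 to -2.28. Its mean was 0.142 ± 0.0648 CPM in Mix, 1.2 ± 0.359 in Y, 0.481 ± 0.139 in Ce, 0.318 ± 0.121 in Tm and 0.207 ± 0.105 in Control (SD, n = 5 each). Y was highest, although its lowest library, at 0.683 CPM, lay just under the highest Ce library, at 0.684 CPM. The Mix libraries overlapped those of Tm and Control and lay below every Ce library.

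Cre16g648000 fell to 15 counts over the 5 Mix libraries, against 107 over the 5 Y libraries. In CPM these were 0.458, 0.206, 0.0608, 0.104 and 0 in the Mix libraries, and 1.34, 0.904, 1.51, 1.02 and 1.08 in the Y libraries. Mix library 1 was the highest of its group, below every Y library as the rule required. The log2 difference was -2.80 ± 0.42 (edgeR adjusted p = 8.88e-06). Mean levels were 0.166 ± 0.180 CPM in Mix, 1.17 ± 0.249 in Y, 1.11 ± 0.309 in Ce, 0.169 ± 0.0780 in Tm and 0.150 ± 0.107 in Control (SD, n = 5 each). The groups formed a high pair, Y and Ce, and a low trio, Mix, Tm and Control, and the libraries of the pair did not overlap those of the trio. In both falls the count in single Mix libraries was at most 8, so the size of the difference is less firm than for the rises. Cre16g648000, like Cre02g081950, passed the 1 CPM limit of the rule through Y and not through Mix.

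**Figure D2:**
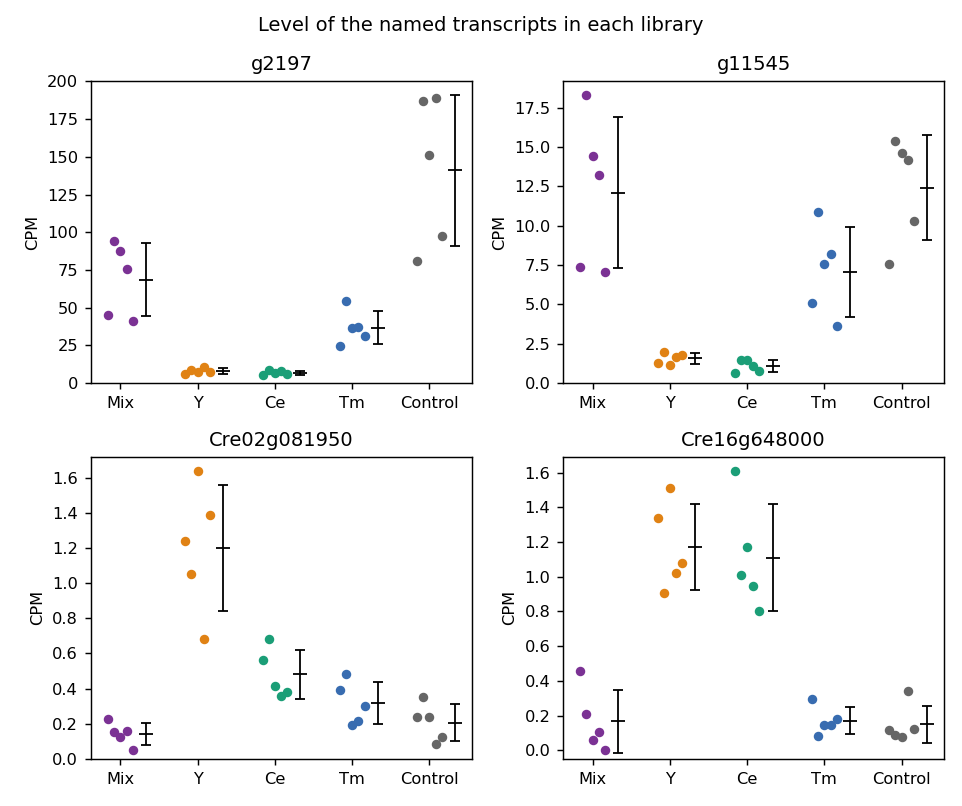
CPM of the 4 named transcripts in each of the 25 libraries (points, libraries 1 to 5 from left to right within a group), with the mean and SD of each group (bars, n = 5). The vertical scale differs between panels, and the rule for naming required that the Mix points not overlap the Y points.

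The position of Mix relative to Y was then described in transcripts sorted by their response to Ce and to Tm against Control. These contrasts leave out Mix and Y, although the libraries of both groups entered the same filter, scaling and fit. Against Control, 5741 transcripts were higher in Ce (44.9%) and 4635 lower (36.2%), and 4114 were higher in Tm (32.2%) and 4824 lower (37.7%), by the same edgeR test. The Control libraries varied more among themselves than those of any other group (biological coefficient of variation 31.6%). The test took the same spread for all groups. Where Ce and Tm had both raised the level, Mix was mostly below Y, and where both had lowered it, Mix was mostly above Y. In the median of either class Mix lay nearer the Control than Y did.

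Of the 2606 transcripts higher in both Ce and Tm than in Control, 1244 were lower in Mix than in Y (47.7%, against 19.2% of all tested) and 134 were higher (5.14%, against 16.3%). Their median log2 difference between Mix and Y was -0.39, against -0.04 for all tested transcripts. Against Control their median log2 difference was 1.08 in Mix, 1.49 in Y, 1.30 in Ce and 1.2 in Tm. A difference of at least 2-fold was called in 329 of these 2606 transcripts that were lower in Mix and in 15 that were higher. Of all 12796 tested transcripts, 687 (5.37%) were lower and 439 (3.43%) higher by at least 2-fold.

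Of the 2932 transcripts lower in both Ce and Tm than in Control, 1101 were higher in Mix than in Y (37.6%, against 16.3% of all tested) and 102 were lower (3.48%, against 19.2%). The median log2 difference between Mix and Y was 0.34. Against Control the medians were -1.49 in Mix, -1.78 in Y, -1.69 in Ce and -1.54 in Tm. At least 2-fold differences were called in 288 of the 2932 transcripts that were higher in Mix and in 21 that were lower, against 3.43% higher and 5.37% lower of all tested. The values against Control share the Control libraries and are given side by side only.

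Under the scaling to Control library 1 these contrasts kept their direction but not their balance. Here and below, the classes stayed as set by the main fit. Only Mix against Y was fitted anew, and the calls in Ce and Tm against Control were not. Among the transcripts raised by both metals, 857 were lower in Mix and 243 higher, with a median of -0.26. Among those lowered by both, 1523 were higher in Mix and 61 lower, with a median of 0.49. A change of scaling shifts both medians nearly alike by construction, so the distance between them is no test of the contrast. With library totals alone the medians were -0.46 and 0.27.

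The difference between Mix and Y was larger where the response to the other metals was larger. Transcripts raised by both were grouped by their mean log2 change in Ce and Tm. Up to 1, the median difference between Mix and Y was -0.25 and 297 of 768 transcripts (38.7%) were lower in Mix. Between 1 and 2 the median was -0.44, with 665 of 1380 lower (48.2%), and above 2 it was -0.73, with 282 of 458 lower (61.6%). In this last group the median change against Control was 2.27 in Mix and 2.93 in Y.

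Among transcripts lowered by both, a mean log2 change smaller than 1 went with a median difference of 0.13 between Mix and Y, and 159 of 573 transcripts were higher in Mix (27.7%). For changes between 1 and 2 the median was 0.33, with 512 of 1380 higher (37.1%). For changes above 2 it was 0.59, with 430 of 979 higher (43.9%). The median change against Control in this last group was -2.39 in Mix and -2.94 in Y. Within the 4 quartiles of abundance the median difference between Mix and Y ran from -0.53 to -0.34 in transcripts raised by both metals and from 0.30 to 0.37 in those lowered by both.

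Where Ce and Tm had called changes in opposite directions, the median difference between Mix and Y had the sign opposite to the change in Ce. In the 1033 transcripts that were higher in Ce and lower in Tm than in Control, 165 were lower in Mix than in Y (16%) and 31 higher (3.00%), with a median log2 difference of -0.25. In the 705 transcripts lower in Ce and higher in Tm, 246 were higher in Mix than in Y (34.9%) and 43 lower (6.10%), with a median of 0.24. Ce was called higher without a call in Tm in 2102 transcripts, and 509 of these were lower in Mix (24.2%) and 42 higher (2.00%). In the 998 transcripts lower in Ce and not called in Tm, 275 were higher in Mix (27.6%) and 51 lower (5.11%). These classes were not split by abundance, although the median difference was -0.17 in the least and 0.14 in the most abundant quartile of transcripts. Of all tested transcripts 16.3% were higher and 19.2% lower.

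These counts moved with the scaling, while the more frequent direction in each of these classes stayed. With Control library 1 as the reference, 99 of the transcripts higher in Ce and lower in Tm were lower in Mix and 57 higher, with a median of -0.11. Of those lower in Ce and higher in Tm, 468 were higher in Mix and 23 lower, with a median of 0.38. Of those higher in Ce and not called in Tm, 295 were lower in Mix and 74 higher, and of those lower in Ce and not called in Tm, 453 were higher and 31 lower.

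Where Ce was not called, the median difference between Mix and Y lay between -0.13 and 0.01. In the 803 transcripts higher in Tm alone, 139 were higher in Mix (17.3%) and 146 lower (18.2%), and the median was 0.01. In the 859 lower in Tm alone, 74 were higher (8.61%) and 89 lower (10.4%), and the median was -0.04. In the 758 transcripts called in neither metal the median was -0.13, with 49 higher (6.46%) and 111 lower (14.6%). The shares for all tested transcripts, 16.3% higher and 19.2% lower, were close to those of the class higher in Tm alone. No direction can be read in these classes, since it turned with the scaling. With Control library 1 as the reference, 260 of the transcripts higher in Tm alone were higher in Mix and 99 lower, with a median of 0.15. Of those lower in Tm alone 112 were higher and 55 lower, with a median of 0.10, and of those called in neither metal 86 were higher and 65 lower, with a median of 0.01.

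**Figure D3:**
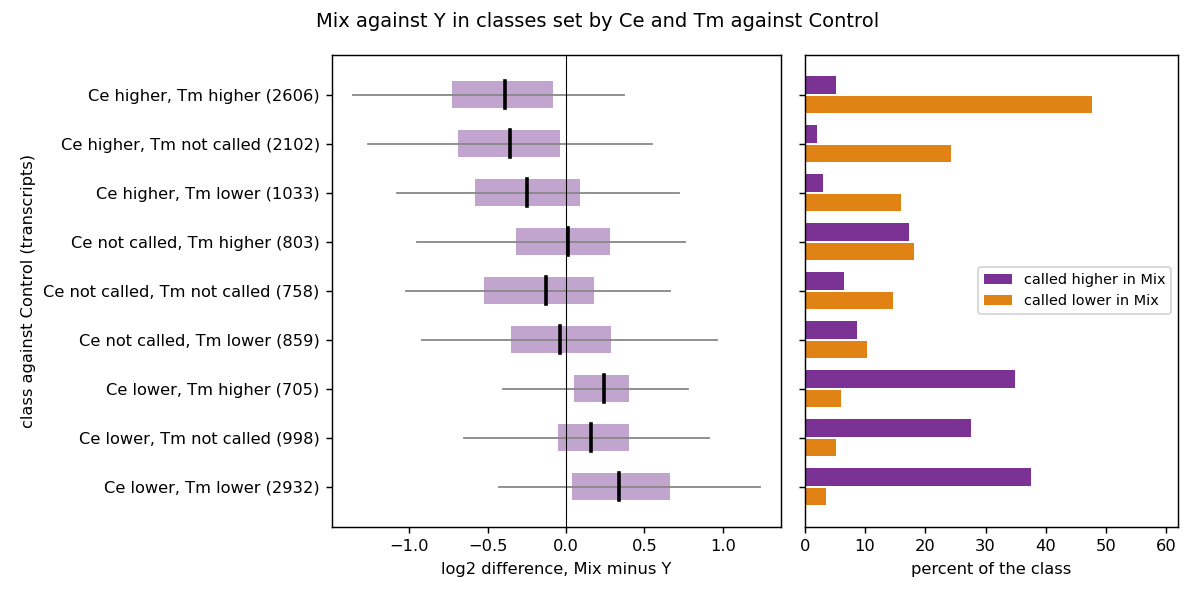
Transcripts in 9 classes by their call in Ce and in Tm against Control (number of transcripts in brackets). Left, log2 difference between Mix and Y with the median (black line), the 25th to 75th percentile (box) and the range from the 5th to the 95th percentile (thin line); right, percent of each class called higher (purple) or lower (orange) in Mix. The median runs from -0.39 in transcripts higher in both metals to 0.34 in those lower in both.

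Over all 12796 transcripts the log2 difference between Mix and Y correlated negatively with the change in Ce against Control (Pearson r = -0.54, Spearman rho = -0.56) and also with that in Tm against Control (r = -0.36, rho = -0.33). These comparisons share no library with Mix or Y, but all come from the same fit and scaling, and transcripts are not independent replicates. With the difference between Ce and Tm themselves r was -0.25 and rho was -0.31. The root mean square log2 difference from Ce was 1.38 for Mix and 1.26 for Y. From Tm it was 0.34 for Mix and 0.50 for Y, and between Mix and Y it was 0.62. Random error between libraries adds to each of these distances, and more to those of Mix, whose libraries varied more than those of Y. The distances were taken with the main scaling only and were not centred on the median. Their order under another scaling was not tested.

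The Mix libraries differed more among themselves than the Y libraries did. The biological coefficient of variation was 17.1% in Mix and 9.97% in Y. It was 10.7% in Ce, 13.1% in Tm and 31.6% in Control, the group against which the Ce and Tm classes were set. Correlations of log2 CPM between libraries were 0.981 to 0.990 within Mix, 0.988 to 0.992 within Y and 0.964 to 0.982 between both groups. On the first principal component of the 10 libraries, which held 48.4% of their variance, Mix libraries lay between 13.0 (library 1) and 51.5 (library 4), and Y libraries between -34.0 and -30.1. Library 1 was thus the Mix library nearest to Y and library 4 the farthest, and the groups did not overlap.

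The same spread is seen in the response classes. In transcripts raised by both Ce and Tm, the median distance from the mean of the Y libraries was -0.21, -0.32, -0.36, -0.57 and -0.46 in Mix libraries 1 to 5, while the Y libraries lay between -0.02 and 0.02. In transcripts lowered by both, it was 0.18, 0.28, 0.28, 0.46 and 0.42 in the Mix libraries, and -0.03 to 0.04 in the Y libraries. Every Mix library therefore lay on the Control side of every Y library in both classes. Without Mix library 4 the calls numbered 1684 higher and 1941 lower in Mix, and without Mix libraries 1 and 4 they numbered 1647 and 1962. Without library 4, 1029 of the transcripts raised by both metals were lower in Mix, and 919 of those lowered by both were higher.

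**Figure D4:**
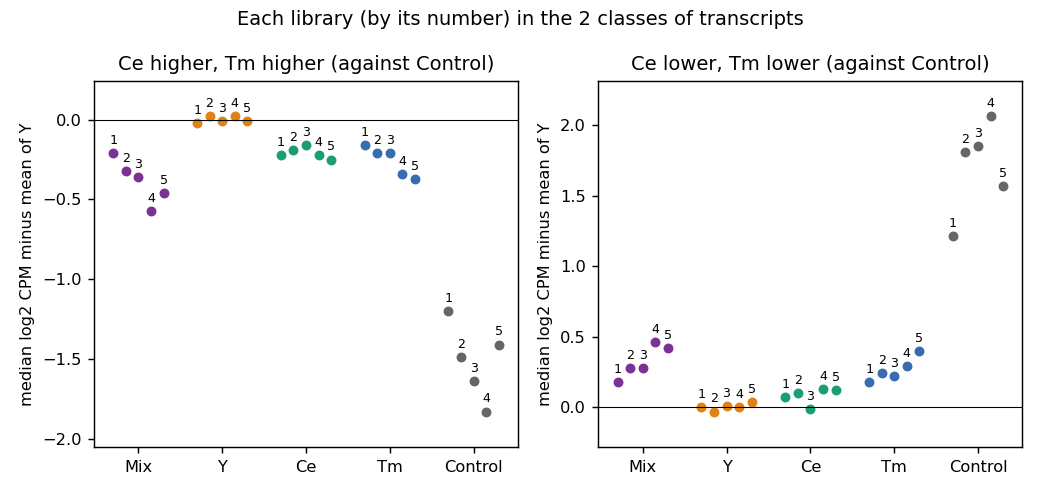
Median log2 CPM of each library, minus the mean of the 5 Y libraries, over transcripts higher in both Ce and Tm than in Control (left, 2606) and lower in both (right, 2932). Numbers give the library within its group; all 5 Mix libraries lie between the Y and the Control libraries in both panels.

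Calls were spread over the genome. By the chromosome number that the IDs of the Cre form contain, the share of transcripts higher in Mix ran from 14.3% to 18.7% over the chromosomes and the share lower from 13.5% to 24.2%, on 89 to 1136 transcripts each. Of IDs of the Cre form, 16.5% were higher and 19.8% lower in Mix, and of those of the g form 15.8% were higher and 17.5% lower.

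Adjacent genes shared a direction more often than genes farther apart. The order of genes was taken from the RefSeq assembly Chlamydomonas_reinhardtii_v5.5, in which 8761 of the 9585 tested IDs of the Cre form were found. Among adjacent pairs, 844 of 5559 had both genes called, and 526 of these (62.3%) went the same way. For pairs 2 genes apart the share was 52.2% of 709, for pairs 3 apart 50.1% of 694, for pairs 10 apart 52.2% of 680 and for pairs 20 apart 52.4% of 657. The correlation of the log2 differences was 0.14 in adjacent pairs and 0.01 to 0.02 in the others. Whether the counting used strand is not given in the sources used here, so reads of overlapping neighbours cannot be told apart, and their part in the shared direction was not tested.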

How the data were processed

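The authors deposited whole-number read counts, 1 column per library, for 19526 annotated transcripts in 25 libraries. Per the labels' protocols, polyadenylated RNA was made into stranded libraries and read in pairs of 100 bases on 2 lanes. The submitters' processing notes list SAMtools 1.2, TopHat2 2.0.14 and Trim Galore 0.3.7. Not given in the sources used here are the counting program, its strand setting, the genome build and the annotation. In 34 cells, 12 of them in Mix or Y, the text "PAC:" was removed from the number. The table has 3004 lines whose ID stands on 2 lines, and these were kept apart.

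The members and lists were chosen with earlier results of these data known. All 25 libraries entered 1 fit with edgeR 4.0.16 (quasi-likelihood test, R 4.3.3), with a coefficient per group, TMM scaling (reference Tm library 2), filterByExpr by group and Benjamini-Hochberg adjustment over 12796 transcripts. The contrast was Mix minus Y. Standard errors are the change divided by the root of F. Log2 CPM used a prior count of 2. Named IDs were the 2 largest rises and 2 largest falls with an adjusted p under 0.05, at least 1 CPM in Mix or Y and no overlap. Gene lists matched no ID. The code was tested on simulated counts, where 91.0% of 2-fold changes were recovered among 12294 transcripts and 4.50% of calls were false. Only 200 transcripts were changed there, as many up as down and all with a mean of at least 1 CPM. All groups had the same spread in the simulation. The rates check the code and do not carry over to the real data, where far more transcripts were called and the spread differed between groups. No pair of libraries within Mix or Y was alike to sampling noise (chi-square per degree of freedom at least 6.98 and 5.45). Alternatives used DESeq2 1.42.0, limma 3.58.1, other scalings, filters and left-out libraries.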

Additional observations from a re-analysis of the deposited data

Results flagged for a closer look

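One of the 24 groups of 5 library values examined held a value far from the others. Cre16g648000 had 0.339 CPM in Control library 4, while the other Control libraries had 0.0791 to 0.125 CPM. Chance marks about 1 group in 20. The Control libraries shared the fit, its spread and its scaling: with the Mix and Y libraries only, the log2 difference between Mix and Y for Cre16g648000 was again -2.80, with an edgeR adjusted p of 9.86e-05 in place of 8.88e-06.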

How the results depend on the processing

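The 4 named transcripts kept their direction and stayed called in every alternative that tested them (34 or 35 each), with adjusted p up to 1.9e-06 for g2197, 2.49e-06 for g11545, 1.09e-05 for Cre02g081950 and 0.000105 for Cre16g648000, and no transcript called here was called in the opposite direction in any alternative. Scaling moved the balance. With Control library 1 as the TMM reference, 3276 transcripts were called higher and 1585 lower in Mix, and the median difference was 0.09. The median was -0.11 with library totals alone, 0 with upper-quartile factors, 0.04 with median-of-ratios factors and 0.04 in DESeq2. Tested against a 1.2-fold change, 1162 were called higher and 1549 lower.

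With 1 library left out and the reference kept, 1684 to 2148 transcripts were called higher and 1941 to 2637 lower, 334 to 485 and 606 to 856 of them by at least 2-fold, with a median of -0.06 to -0.04. In all 10 of these fits edgeR itself would take Control library 1 as the reference. Then 2833 to 3348 were higher and 1316 to 1647 lower, 523 to 751 and 422 to 575 of them by at least 2-fold, with a median of 0.08 to 0.10. That setting, the fit without Mix libraries 1 and 4 and the block in all 25 libraries were chosen after the data had been seen.

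Libraries of Mix and Y were taken as paired by number only if the deviations from the group means correlated above 0.1 in every same-numbered pair. The correlations were -0.00174, 0.134, 0.14, 0.0178 and 0.226, so 3 of 5 pairs passed. Mix library 1 correlated best with Y library 2 (0.0724) and Mix library 4 with Y library 1 (0.179). Whether the numbers mark shared cultures or days is not given in the labels, and the p-values and standard errors in the text come from the fit without a block. With a replicate block, 2722 were higher and 3108 lower in a fit of Mix and Y only, against 2588 and 2914 without it, and 2394 and 2882 in all 25 libraries, where the adjusted p of g2197 was 8.77e-14. At these depths, 12 transcripts called higher had under 10 counts over the Y libraries, and 13 called lower had under 10 over the Mix libraries.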

Other observations

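Libraries numbered 1 were nearest to Y in Mix, Tm and Control but not in Ce. In the transcripts lower in both Ce and Tm than in Control, library 1 lay nearest to the mean of Y in Mix (0.18), Tm (0.18) and Control (1.21), while the farthest was library 4 in Mix (0.46) and Control (2.06) and library 5 in Tm (0.40). In transcripts higher in both metals, library 1 was again nearest in Mix (-0.21), Tm (-0.16) and Control (-1.20), and the farthest was library 4 in Mix (-0.57) and Control (-1.83) and library 5 in Tm (-0.37). Ce did not share this order: its library 3 was nearest in both classes (-0.01 and -0.16). The labels read here name no exposure day or batch for a number, and its part in these values was not tested.

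For g2197, library 1 held the lowest value in Y (6.23 CPM), Ce (5.42), Tm (24.4) and Control (80.9), and libraries 5 and 1 the lowest in Mix (41.1 and 45.3). Library 2 held the highest value in Mix (94.1), Ce (8.45) and Tm (54.7), and library 4 in Y (11.0) and Control (189).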
